A study of Mus musculus with 6 samples.

Results

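A set of 40 antioxidant genes was followed in RNA of the basal part of the mouse cochlea, in libraries labelled old and young. They are the superoxide dismutases, catalase, glutathione peroxidases, peroxiredoxins, the thioredoxin and glutaredoxin systems, the enzymes that make, reduce and use glutathione, and the NRF2 axis that controls many of them. The genes were chosen by name, with earlier results of these data known, and the entries of the deposited tables with those symbols were taken. All 40 were found among 34395 gene entries, and all 40 passed the filter on low counts that left 20157 genes for the test.

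The libraries are 3 old and 3 young, all of C57BL/6J mice, an inbred strain that loses hearing early and from the cochlear base upward. The study models hearing loss of ageing, and the comparison asks which RNAs differ between old and young cochleae. The labels give no age and no sex, though sex-linked RNA separated the old from the young libraries, as given below. They also leave unsaid which animals went into which library. A p-value therefore rests on the spread among 3 libraries a group, which may be technical. Each library held between 26245416 and 39433584 counts over genes.

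Superoxide dismutases turn superoxide into hydrogen peroxide, and catalase, glutathione peroxidases and peroxiredoxins then remove the peroxide. Peroxidases draw their electrons from glutathione or thioredoxin, which glutathione reductase and thioredoxin reductases recharge with NADPH. In the cochlea, sensory hair cells and the stria vascularis have a high oxidative load, and mice that lack Sod1 or Gpx1 are known to be more sensitive to noise. The factor NRF2, the product of Nfe2l2, is held in check by KEAP1 and binds antioxidant response elements in the promoters of many of these genes.

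Antioxidant response elements hold the core TGACNNNGC, where N is any base. It was searched on both strands in RefSeq promoter windows (GRCm38.p6, 250 bases before to 50 after an annotated start, of which a gene can have several). Windows were found for 35 of the 40 genes, 8 of which (22.9%) held the core in at least 1 window, beside 14% of all 27025 genes with a window. These are shown because NRF2 is a known regulator of many of the 40 genes. A match is a description of letters, not a bound site, and no match says only that these letters are not in the window. Sequences read 5′ to 3′ along the gene, with the core in capitals, as GCNNNGTCA where it lies on the opposite strand.
Prdx1, chr4:116685426-116685514, plus strand: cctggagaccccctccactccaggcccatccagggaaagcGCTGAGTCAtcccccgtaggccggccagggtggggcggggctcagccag
Gclm, chr3:122245383-122245471, plus strand: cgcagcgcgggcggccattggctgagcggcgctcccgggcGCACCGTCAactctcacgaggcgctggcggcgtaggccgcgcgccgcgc
Txnrd1, chr10:82859074-82859162, plus strand: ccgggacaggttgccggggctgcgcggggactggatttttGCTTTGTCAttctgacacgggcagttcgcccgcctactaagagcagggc
Sod1, chr16:90220666-90220754, plus strand: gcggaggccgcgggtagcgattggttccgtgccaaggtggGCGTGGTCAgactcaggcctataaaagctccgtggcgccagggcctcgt
Mgst1, chr6:138140431-138140519, plus strand: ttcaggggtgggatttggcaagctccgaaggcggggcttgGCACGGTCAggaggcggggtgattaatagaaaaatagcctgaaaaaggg
Gstm5, chr3:107895772-107895853, plus strand: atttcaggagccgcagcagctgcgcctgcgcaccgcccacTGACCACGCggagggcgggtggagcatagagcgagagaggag
Nfe2l2, chr2:75704855-75704913, minus strand: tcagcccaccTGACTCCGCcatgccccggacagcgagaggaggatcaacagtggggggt
Srxn1, chr2:152105542-152105570, plus strand: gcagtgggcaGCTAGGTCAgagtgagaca
The core lies upstream of the start of its window in the first 7 of these and just after it in Srxn1. The Txnrd1 window belongs to an internal start, within the gene's span of 82833951 to 82897724 on chromosome 10. Genes with the core did not all move alike: Prdx1 was among the genes with the largest falls, while Nfe2l2 did not pass the test in either direction, as given below.

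Most of the antioxidant genes were lower in the old libraries. With edgeR on the counts (TMM scaling, adjusted p under 0.05), 35 of the 40 fell and 0 rose, where 27.3% of all tested genes fell and 26.9% rose. With edgeR at an unadjusted p under 0.05, and with DESeq2, 0 of the 40 rose as well; other scalings, given below, put up to 3 past the threshold. Among protein-coding genes alone, the kind to which all 40 belong, 34.7% fell and 19.7% rose. Together the 40 genes took 2428, 2358 and 2418 CPM (read counts scaled by TMM to a common library size) in old 1, 2 and 3, against 3490, 4315 and 4792 CPM in young 1, 2 and 3. The CPM of 37 genes lay lower in every old than in every young library, beside 31% of all tested genes, and that of 1, Gclc, lay higher in every old library, beside 31.2%. The median log2 fold change, old minus young, was -0.72, beside 0.01 over all tested genes and -0.13 over coding genes.

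**Figure D1:**
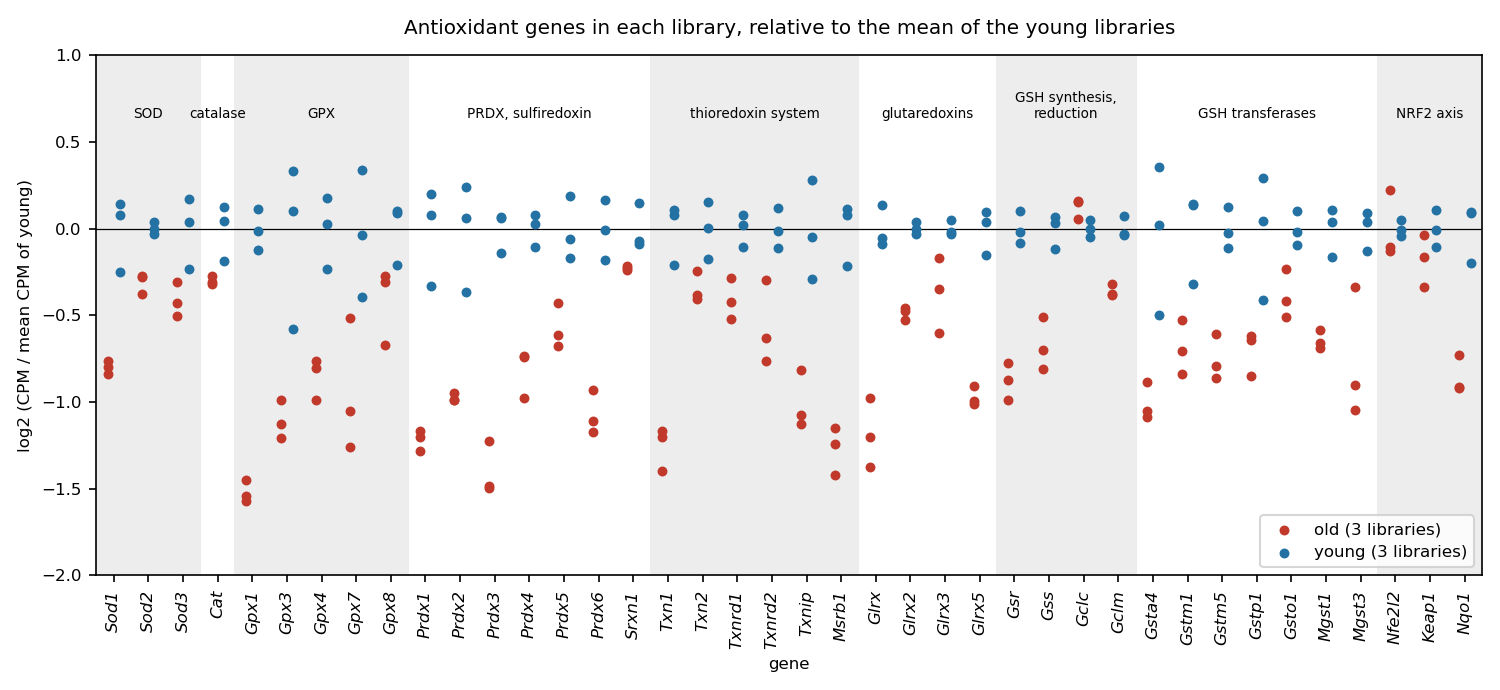
Each point is 1 library's log2 ratio of CPM to the mean CPM of the young libraries for 1 gene, with genes on the x axis by family, old points left of young. The old points lie below all young points for 37 of the 40 genes and above them for Gclc.

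Among the superoxide dismutases, the cytosolic copper and zinc enzyme gene Sod1 (gene 20655, chromosome 16, 90220762 to 90226333, GRCm38.p6) fell most. It had 86.4, 88.5 and 83.9 CPM in old 1, 2 and 3, against 125.9, 158.2 and 165.4 CPM in young 1, 2 and 3, so the groups did not overlap (log2 fold change -0.80 ± 0.10, SE; adjusted p = 0.000178). The mitochondrial manganese enzyme gene Sod2 had 171.6, 159.4 and 170.5 CPM in old libraries, against 212.3, 202.6 and 207.1 CPM in young (-0.31 ± 0.07, adjusted p = 0.0045). Per length, Sod2 averaged 58.7 FPKM in old and 58.2 FPKM in young libraries (adjusted p = 0.874 on log2(FPKM + 1) with limma). Sod3, the secreted form, had 19.8, 22.7 and 20.9 CPM in old libraries, against 23.9, 28.8 and 31.7 in young (-0.41 ± 0.12, adjusted p = 0.0146, and 0.0524 without old 1). Catalase, the heme enzyme of peroxisomes, had 79.6, 77.1 and 77.6 CPM in old libraries, against 84.6, 104.7 and 99.0 in young. Its log2 fold change of -0.30 ± 0.09 was the smallest of any that passed (adjusted p = 0.0172), and missed the threshold without old 2 (adjusted p = 0.0521) or young 2 (adjusted p = 0.087).

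All 5 glutathione peroxidase genes fell. Gpx1 (gene 14775, chromosome 9, 108339080 to 108340342), the cytosolic and mitochondrial selenoenzyme, had the largest fall of the 40 genes. It had 37.0, 40.3 and 37.8 CPM in old 1, 2 and 3, against 101.1, 119.2 and 108.8 CPM in young 1, 2 and 3, a drop of the mean by 65% (log2 fold change -1.52 ± 0.09, adjusted p = 5.93e-06). Gpx3, the secreted selenoenzyme of plasma, had 319.7, 337.4 and 371.3 CPM in old libraries, against 492.6, 790.9 and 929 CPM in young (-1.11 ± 0.19, adjusted p = 0.000809). Both groups of Gpx3 are apart, with the widest spread among the young. Gpx4, which reduces lipid peroxides in membranes and guards against ferroptosis, had the highest level per length of the family, with 420 ± 33.7 FPKM in old and 617 ± 58.3 FPKM in young libraries (SD, n = 3). Gpx4 had 233.5, 227.2 and 199.5 CPM in old libraries, against 337.3, 402.8 and 448.1 in young, with no overlap (-0.85 ± 0.11, adjusted p = 0.000187). The endoplasmic reticulum peroxidase genes changed less surely. Gpx7 was low, at 1.85, 1.11 and 1.28 CPM in old libraries, against 2.02, 2.59 and 3.35 in young (-0.90 ± 0.29, adjusted p = 0.0233). Its adjusted p ran from 0.0578 to 0.0888 when old 2, old 3, young 2 or young 3 was left out. Gpx8 changed by -0.41 ± 0.14 on the log2 scale (adjusted p = 0.0361, but 0.122 without old 2, 0.118 without young 2, 0.0742 without young 3 and 0.0612 with the replicate number as a block).

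Peroxiredoxins, the thiol peroxidases, fell in 6 of 6 cases. Prdx3, which works in mitochondria with thioredoxin 2, had 34.2, 28.5 and 28.2 CPM in old 1, 2 and 3, against 72.3, 83.5 and 83.3 CPM in young 1, 2 and 3 (log2 fold change -1.40 ± 0.10, adjusted p = 1.45e-05). Prdx1, the abundant cytosolic form, had 96.7, 89.3 and 94.4 CPM in old libraries, against 172.4, 228.8 and 249.1 CPM in young (-1.21 ± 0.12, adjusted p = 5.27e-05). Prdx6, which uses glutathione and also repairs membrane lipids, had 107.7, 95.1 and 90.8 CPM in old libraries, against 181, 204.2 and 230 in young (-1.07 ± 0.10, adjusted p = 4.23e-05). For each of these genes the highest old library lay well under the lowest young one. Prdx2 (-0.97), Prdx4 of the endoplasmic reticulum (-0.82) and Prdx5 (-0.57), which reaches mitochondria and peroxisomes, fell as well. Srxn1, the sulfiredoxin that revives overoxidized peroxiredoxins and a textbook NRF2 target, had 44.1, 44.4 and 44.9 CPM in old libraries, against 57.5, 49.5 and 48.9 CPM in young. Its groups did not overlap, but it did not pass (-0.23 ± 0.09, adjusted p = 0.0504, and 0.0326 without young 3). DESeq2 put it past the threshold (adjusted p = 0.0436).

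Of the thioredoxin system 6 of 6 genes fell, with log2 fold changes from -1.27 to -0.34. Txn1, the cytosolic thioredoxin, had 19.5, 19.0 and 16.6 CPM in old 1, 2 and 3, against 37.9, 46.3 and 47.2 CPM in young 1, 2 and 3 (log2 fold change -1.25 ± 0.11, adjusted p = 2.99e-05). Msrb1, a selenoprotein that repairs oxidized methionine with the help of thioredoxin, had 19.6, 20.8 and 17.3 CPM in old libraries, against 39.9, 48.9 and 50.1 in young (-1.27 ± 0.12, adjusted p = 3.1e-05). Txnip, which binds and inhibits thioredoxin, fell too, with 172.9, 144.2 and 139.4 CPM in old libraries, against 248.7, 294.2 and 369.3 in young (-1.0 ± 0.14, adjusted p = 0.000266). So the RNA of thioredoxin and that of its inhibitor were both lower. Both reductase genes, cytosolic Txnrd1 (-0.41 ± 0.09) and mitochondrial Txnrd2 (-0.55 ± 0.15), fell, though neither passed with library totals alone or on FPKM (adjusted p of 0.158 to 0.37). Mitochondrial thioredoxin, Txn2, had 62.2, 55.5 and 56.5 CPM in old libraries, against 65.0, 73.7 and 81.9 in young (-0.34 ± 0.10, adjusted p = 0.0144, and 0.054 without old 2).

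Glutaredoxins, which use glutathione to free mixed disulfides, fell in 4 of 4 cases. Glrx, the cytosolic form, had 9.61, 8.52 and 11.3 CPM in old libraries, against 20.8, 24.3 and 21.3 CPM in young (log2 fold change -1.18 ± 0.13, adjusted p = 8e-05). Glrx5, a mitochondrial member that passes on iron-sulfur clusters, had 19.4, 20.8 and 19.6 CPM in old libraries, against 35.1, 40.1 and 41.6 in young (-0.97 ± 0.10, adjusted p = 4.96e-05). These groups were far apart in both genes. Glrx3, which carries iron-sulfur clusters in the cytosol, changed by -0.36 ± 0.11 on the log2 scale (adjusted p = 0.0188, and 0.0611 without old 2). Glrx2, a mitochondrial form, had 20.4, 20.6 and 19.7 CPM in old libraries, against 28.2, 27.7 and 29.1 in young (-0.49 ± 0.09, adjusted p = 0.00119, but 0.0809 with library totals alone).

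Of the genes that make and reduce glutathione 3 of 4 fell. Gclc, the catalytic subunit of the rate-limiting ligase, was the gene with the highest log2 fold change of the 40, at 0.12 ± 0.08 (adjusted p = 0.199). It had 55.2, 59.1 and 59.3 CPM in old 1, 2 and 3, against 51.3, 53.0 and 55.1 CPM in young 1, 2 and 3, a small gap without overlap that did not pass. Gss, which completes glutathione, had 10.3, 11.8 and 9.59 CPM in old libraries, against 15.5, 17.2 and 17.6 in young (-0.67 ± 0.12, adjusted p = 0.00127). Gsr, the reductase that recycles it, had 20.0, 23.3 and 21.7 CPM in old libraries, against 39.1, 42.7 and 37.5 in young (-0.88 ± 0.10, adjusted p = 7.6e-05). Of this family the recycling gene thus fell most.

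Gclm, the modifier subunit of the same ligase, gave opposite directions in counts and in FPKM. By CPM it was lower, with 24.6, 24.7 and 25.6 in old libraries, against 31.2, 33.7 and 31.3 in young (log2 fold change -0.36 ± 0.09, adjusted p = 0.00554). By FPKM it was higher, with 22.1, 22.6 and 19.6 in old libraries, against 17.2, 18.2 and 16.6 in young (0.29 ± 0.08 on log2(FPKM + 1), adjusted p = 0.0179 with limma). Counts and FPKM together imply an effective transcript length, which for Gclm was 1209, 1213 and 1438 bases in old libraries, against 1743, 1672 and 1626 bases in young. With that length as an offset in the count fit, the log2 fold change was 0.01 (adjusted p = 0.915). The annotated genes Gm46822 and Gm6061 overlap Gclm, and its share of reads from the overlap is unknown. Glrx2 moved the other way in length, with 1726, 2051 and 1765 bases in old libraries, against 1527, 1536 and 1276 bases in young. Its log2 fold change was -0.86 with the length offset. These were the only 2 of the 40 genes whose mean implied length differed by more than 10% between groups. Of 19914 tested genes with such a length 9.43% were shorter and 8.12% longer in old libraries by that measure.

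**Figure D2:**
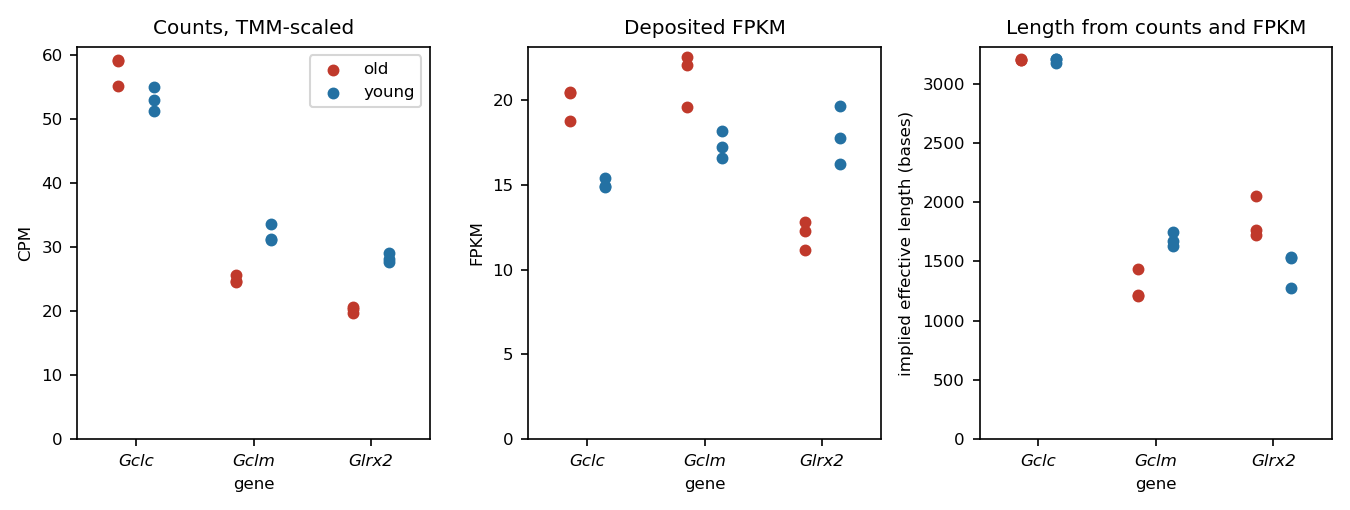
CPM, FPKM and the effective length implied by both, in bases, for Gclc, Gclm and Glrx2 on the x axes, 1 point per library, old left of young. Gclm lies lower in old libraries by CPM and higher by FPKM, with a shorter implied length, while the length of Gclc is about the same in all 6 libraries.

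Glutathione transferases, which couple glutathione to lipid peroxidation products and other electrophiles, fell in 6 of 7 cases. Gsta4, which takes the lipid aldehyde 4-hydroxynonenal as its substrate, had the highest FPKM of the family, with means of 209 in old and 340 in young libraries. It had 131.2, 134.8 and 151.3 CPM in old libraries, against 197.8, 282.7 and 357.4 CPM in young (log2 fold change -1.01 ± 0.17, adjusted p = 0.0009). Gstm5 had 24.8, 23.6 and 28.1 CPM in old libraries, against 39.6, 42.0 and 46.6 in young (-0.75 ± 0.10, adjusted p = 0.000236). The membrane-bound Mgst3 had 14.2, 12.9 and 21.0 CPM in old libraries, against 24.2, 27.2 and 28.2 in young (-0.73 ± 0.17, adjusted p = 0.0047). Old 3 lay nearest to the young values for Mgst3, whose fold change was -0.98 without it. Gstp1 (-0.70), Gstm1 (-0.68) and Mgst1 (-0.64) fell, and Gsto1 (-0.38 ± 0.16, adjusted p = 0.0706) did not pass. Gstp1 has close relatives, and its counts were not whole numbers in all 6 libraries, so that its reads are in part shared and its value is uncertain. That holds also for Prdx1, Gss, Glrx2 and Glrx3, while 30 of the 40 genes had whole counts in every library.

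In the NRF2 axis 1 of 3 genes fell. Nfe2l2 had 61.4, 48.9 and 48.2 CPM in old 1, 2 and 3, against 51.2, 54.5 and 52.3 CPM in young 1, 2 and 3. The old values lie on both sides of the young ones, and the log2 fold change was 0.00 ± 0.10 (adjusted p = 0.971). Keap1, its inhibitor, had 61.1, 66.6 and 54.1 CPM in old libraries, against 63.5, 68 and 73.8 in young (-0.17 ± 0.10, adjusted p = 0.154). Nqo1, the quinone reductase and a classical NRF2 target, had 8.07, 8.05 and 9.17 CPM in old libraries, against 13.3, 16.2 and 16.2 in young (-0.85 ± 0.13, adjusted p = 0.000462).

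How many of the genes fell depended on the scaling. With library totals alone in place of TMM, 24 fell and 2, Gclc and Nfe2l2, rose, where 14.5% of all genes fell and 41% rose. On log2(FPKM + 1) with limma, 24 fell and 3, Gclc, Gclm and Nfe2l2, rose, where 13.7% of all genes fell and 38.4% rose. The FPKM values did not overlap for 23 lower and 3 higher genes, beside 16.6% and 44.7% of all. With TMM factors from coding genes only, 29 fell and 1, Gclc, rose, where 20.6% of all genes fell and 33.7% rose. The median over all tested genes was 0.29 with library totals alone, 0.19 with FPKM and 0.15 with TMM on coding genes, in place of 0.01. Of all calls 73.9%, 73.7% and 62.1% were then higher, in place of 49.7%. Relative to that median, the median of the 40 genes was -0.73 with TMM, -0.72 with library totals alone and -0.60 with FPKM, and 39, 39 and 37 of the 40 lay under it. Relative to the median of coding genes alone it was nearer, at -0.58, -0.58 and -0.53. Of the 35 genes that fell, 20 kept that call in each of the 21 alternatives run: Sod1, Gpx1, Gpx3, Gpx4, Prdx1, Prdx2, Prdx3, Prdx4, Prdx6, Txn1, Txnip, Msrb1, Glrx, Glrx5, Gsr, Gss, Gsta4, Gstm5, Mgst1 and Nqo1. Sod2, Sod3, Cat, Gpx8, Txn2 and Glrx3 passed neither with library totals alone nor on FPKM nor with TMM on coding genes.

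**Figure D3:**
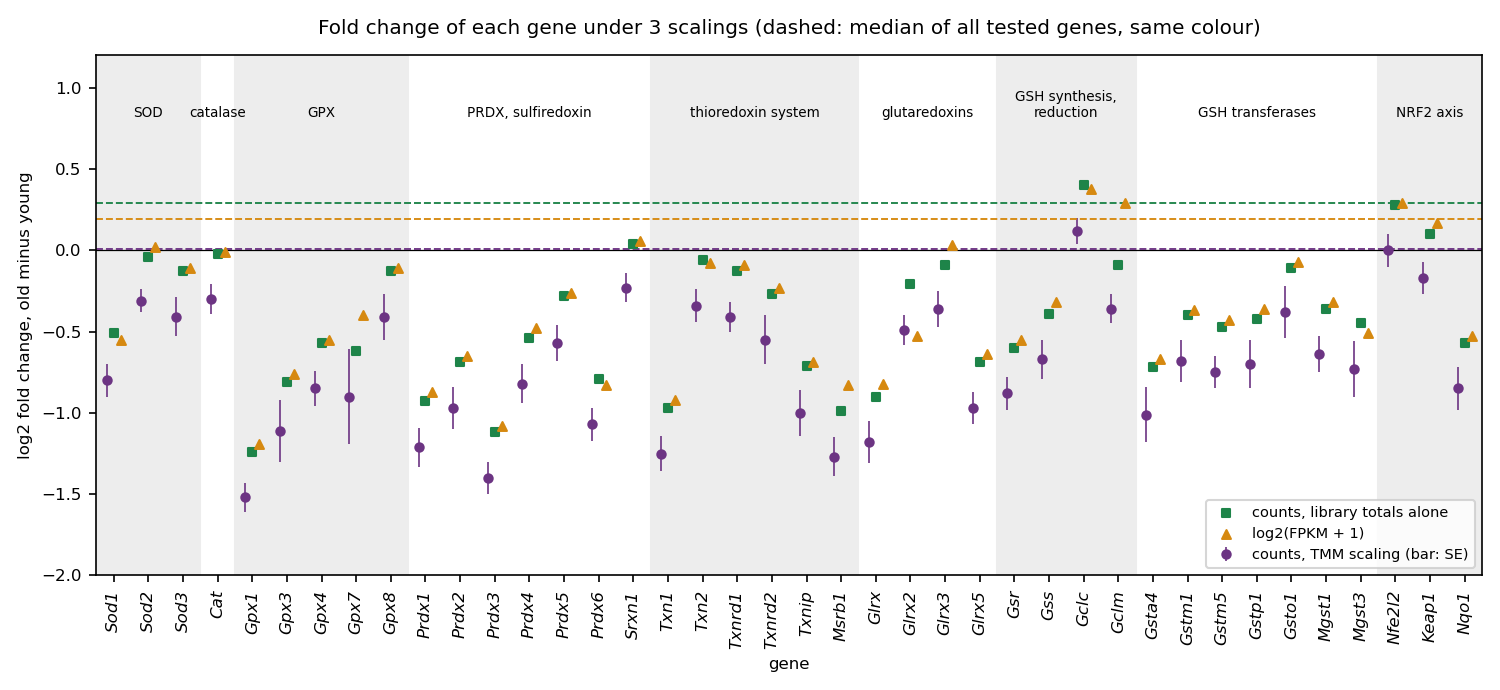
Log2 fold change, old minus young, of each gene (x axis, by family) from counts with TMM, from counts with library totals alone and from log2(FPKM + 1); bars are the SE of the TMM values, and dashed lines mark the median of all tested genes. Gpx1 and Prdx3 lie lowest under all 3 scalings, and Gclc and Nfe2l2 lie at or above 0 in each.

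Among tested coding genes the median fold change was lower for shorter transcripts, and the antioxidant genes are short. Their median implied length was 1197 bases, beside 2661 bases over 15217 coding genes. They were also more abundant, with a median of 31.4 FPKM, beside 9.08 FPKM over these coding genes. Coding genes under 1000 bases had a median log2 fold change of -0.56, those of 1000 to 2000 bases -0.24 and those over 2000 bases -0.05. The antioxidant genes of the same length ranges had medians of -0.82 (15 genes), -0.68 (15 genes) and -0.31 (10 genes). In these ranges 14, 15 and 6 of them fell, where 55.2%, 39.3% and 29.9% of coding genes did. Spearman's rho between implied length and log2 fold change was 0.45 across the 40 genes and 0.25 across the coding genes, which share the same 6 libraries and are not independent. The part of transcript length or of abundance in the falls was not tested.

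**Figure D4:**
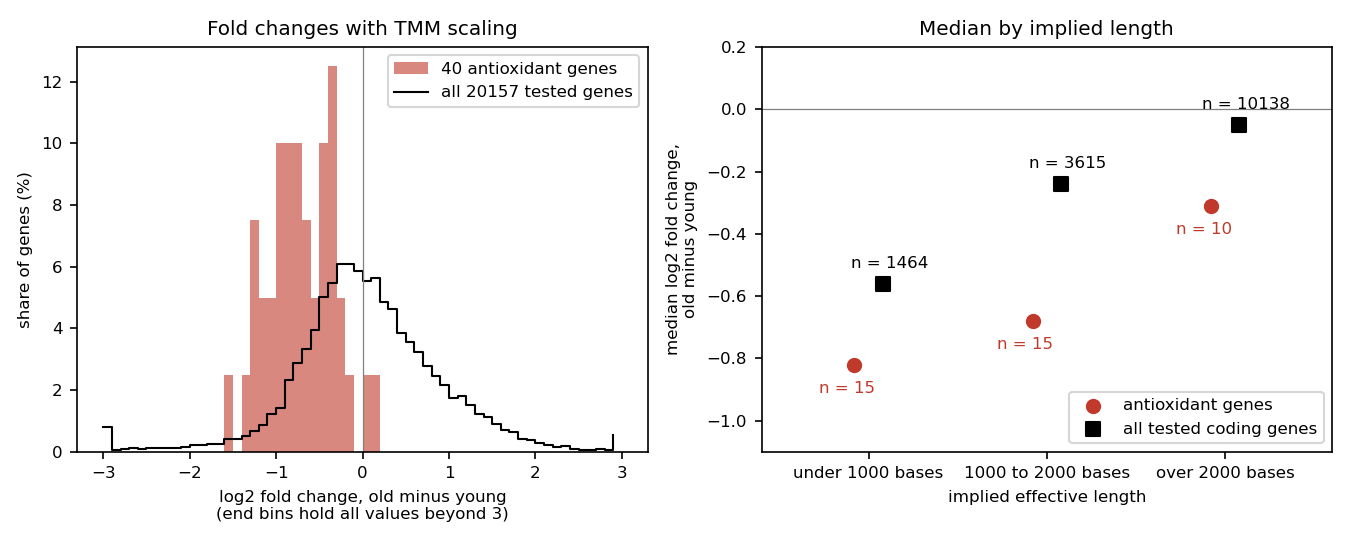
Left, the share of genes (%) in each 0.1-wide range of log2 fold change, for the 40 antioxidant genes and all 20157 tested genes. Right, the median log2 fold change by implied length in bases for antioxidant and coding genes; the medians of the antioxidant genes lie lower in all 3 length ranges, and both kinds are lowest under 1000 bases.

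Ratios of mitochondrial to cytosolic counterparts within a library do not depend on its scaling. These pairs were chosen after the values had been seen. The FPKM ratio of Txn2 to Txn1 was 2.35, 2.15 and 2.55 in old 1, 2 and 3, against 1.31, 1.23 and 1.34 in young 1, 2 and 3, a log2 difference of 0.86. Sod2 to Sod1 was 0.286, 0.257 and 0.296 in old libraries, against 0.239, 0.17 and 0.165 in young, a log2 difference of 0.56. For both pairs the ratio was higher in every old library. The two-sided exact permutation p was 0.1, the smallest that 3 against 3 libraries allow, and 0.35 adjusted over the 7 ratios computed. As the pairs were picked on these values, the p-values only describe them. Mean implied lengths in young libraries were 3242 bases for Sod2 and 440 for Sod1, and 1085 for Txn2 and 833 for Txn1. The part of transcript length in these ratios was not tested. The ratios of Prdx3 to Prdx1, Txnrd2 to Txnrd1 and Glrx2 to Glrx by FPKM overlapped between groups (exact permutation p = 0.2, 0.5 and 0.2). Gclc to Gclm and Nfe2l2 to Keap1 by FPKM overlapped as well (exact permutation p = 0.4 and 0.3). By counts, the ratios of Glrx2 to Glrx and of Gclc to Gclm lay higher in every old library. Their log2 differences were 0.70 and 0.48 by counts, beside 0.32 and 0.09 by FPKM. Counts are not divided by length, so these count ratios also hold the shifts in implied length of Glrx2 and Gclm.

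**Figure D5:**
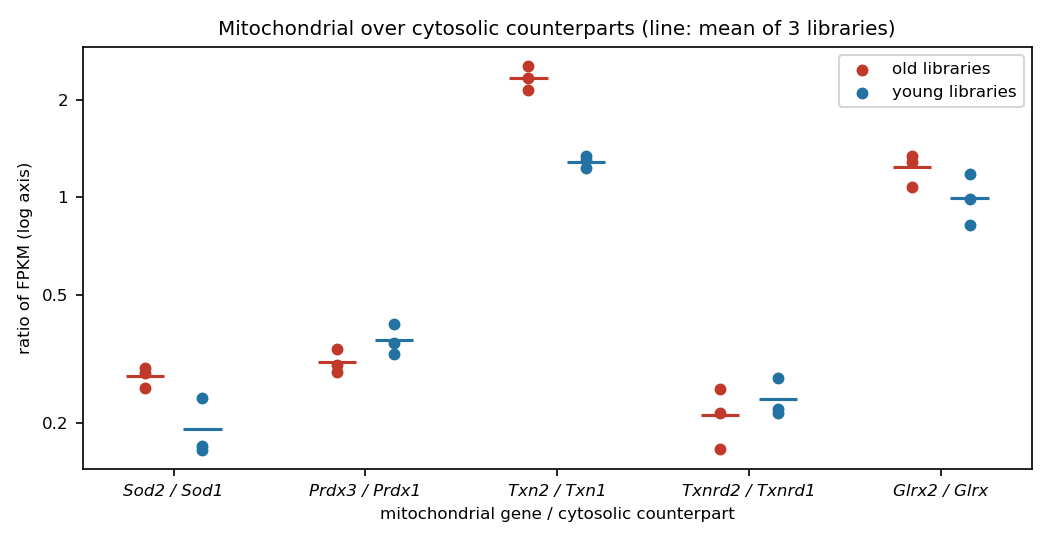
Ratio of FPKM of 5 mitochondrial genes to their cytosolic counterparts, on a log axis, 1 point per library and a line at the mean of 3 libraries, old left of young. The old points lie above the young for Txn2 over Txn1 and Sod2 over Sod1, and overlap for the other pairs.

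Genes grouped by product fell in each group with TMM, where 27.3% of all tested genes fell. The 6 selenoprotein genes among the 40 (Gpx1, Gpx3, Gpx4, Txnrd1, Txnrd2 and Msrb1) all fell, with a median of -0.98. The 6 mitochondrial genes Sod2, Prdx3, Txn2, Txnrd2, Glrx2 and Glrx5 all fell with TMM, from -1.40 to -0.31 (Sod2 was at 0.02 on FPKM), and the 3 of the endoplasmic reticulum (Gpx7, Gpx8 and Prdx4) from -0.90 to -0.41. Fewer passed under other scalings. With library totals alone 4 of 6 selenoprotein, 2 of 6 mitochondrial and 1 of 3 endoplasmic reticulum genes fell, beside 14.5% of all tested genes. On FPKM 4 of 6, 3 of 6 and 1 of 3 fell, beside 13.7%. Gpx1 and Prdx5, whose products lie in mitochondria and elsewhere, were not counted as mitochondrial.

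Markers of several cell types moved with the antioxidant genes, and their part in the falls was not tested. In bulk RNA fewer cells of a type and less RNA per cell cannot be told apart. The summed level of 6 marginal cell markers (stria vascularis) ran from 4880 to 5610 CPM in old and from 9060 to 12500 CPM in young libraries, and all 6 fell. Fibrocyte markers of the lateral wall ran from 5300 to 6910 CPM in old and from 9700 to 12600 CPM in young libraries, and 5 of 6 fell. Hair cell markers ran from 97.4 to 111 CPM in old and from 163 to 251 CPM in young libraries, and 8 of 8 fell, so that the labelled tissue carried its defining markers in both groups. Red cell precursors are rich in Prdx2, Gpx1 and catalase, and 9 of 9 erythroid markers fell. Their sum ran from 418 to 1280 CPM in old and from 2210 to 5040 CPM in young libraries. Neutrophil markers ran from 39.2 to 116 CPM in old and from 706 to 976 CPM in young libraries, and 8 of 8 fell. Osteoblast markers ran from 74.6 to 83 CPM in old and from 182 to 388 CPM in young libraries, with 5 of 7 lower. Proliferation markers ran from 26.6 to 31.1 CPM in old and from 69.4 to 121 CPM in young libraries, with 6 of 6 lower. Melanocyte markers ran from 943 to 1080 CPM in old and from 1410 to 1530 CPM in young libraries, with 3 of 5 lower. No marker of these 8 lists was at 0 in a whole group. Spiral ganglion neuron markers rose in 5 of 5 cases, though Nefh changed by 0.29 (adjusted p = 0.154) with the length offset. Other lists were mixed. Of 6 tested supporting cell markers 2 fell and 2 rose. Their sum ran from 1520 to 1660 CPM in old and from 1520 to 1910 CPM in young libraries. Of 5 Schwann cell markers 1 fell and 1 rose. Of 5 muscle markers 1 fell, and of 7 macrophage markers 2 fell. All counts of markers that fell or rose are from the TMM fit, where 27.3% of all tested genes fell and 26.9% rose. Of coding genes 34.7% fell and 19.7% rose. The falls in the supporting cell, Schwann cell, muscle and macrophage lists were near these shares. When 1 library was left out, from 30 (without old 2) to 35 (without young 1) of the 40 antioxidant genes were lower. Their median ran from -0.84 without young 1, the young library with the lowest sum of these genes, to -0.67 without old 1.

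Sex-linked RNA differed between the groups too. Xist had 0 to 0.302 CPM in old and 384 to 515 CPM in young libraries, and the Y-linked Ddx3y had 30.0 to 37.1 CPM in old and 0 in young libraries. Age group and these markers cannot be told apart in any result given here, that of the X-linked Prdx4 included.

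Other genes of the same pathways, 127 in 7 lists, fell more often than they rose as well. Of 119 tested, 69 fell and 12 rose, with a median of -0.45, beside 27.3% lower and 26.9% higher over all tested genes. With library totals alone 43 fell and 24 rose, beside 14.5% and 41%. On FPKM 40 fell and 24 rose, beside 13.7% and 38.4%. Glutathione transferases and glutathione-handling genes outside the 40 fell in 17 of 27 tested cases (13 with library totals alone and on FPKM), with Gsta2 (-1.67 ± 0.24), Gstm4 (-1.29 ± 0.24) and Gstp2 (-1.27 ± 0.30) among them, and the 3 that rose were Gstcd (0.57), Ggct (0.50, but -0.12 with the length offset) and Ggt7 (0.42). Other NRF2 targets and partners fell in 20 of 32 cases (13 with library totals alone and 11 on FPKM). Pgd (-1.07 ± 0.10) and Idh1 (-0.91 ± 0.11), which supply NADPH, and the heme oxygenase gene Hmox1 (-0.87 ± 0.18) fell, while the transcription factor genes Bach2 (0.76) and Maf (0.33) rose. Superoxide and peroxide enzymes and their helpers fell in 8 of 14 cases and rose in 2. Scaled by library totals, 3 of the list were lower and 5 higher, and on FPKM 3 were lower and 4 higher. The shares of all tested genes given above stand beside the counts of each list here. The genes lower with TMM include Park7 (-1.55 ± 0.12), the redox sensor DJ-1, and Ccs (-0.85 ± 0.18), the copper chaperone of Sod1. Gpx6 (0.98) and Nnt (0.66), the mitochondrial enzyme that makes NADPH and carries a deletion in this strain, rose. Further thioredoxin-like and methionine sulfoxide genes fell in 6 of 12 cases (3 with library totals alone and on FPKM), among them Pdia6 (-0.84), Msrb2 (-0.77) and Pdia4 (-0.74), and Msra (0.44) rose. Of the metallothioneins, metal-binding scavengers, Mt3 fell (-0.24 ± 0.08, adjusted p = 0.0354), while Mt1 (-0.18, adjusted p = 0.122) and Mt2 (-0.28, adjusted p = 0.193) did not pass. On log2(FPKM + 1) Mt3 had a difference of 0.11 (adjusted p = 0.182) and so did not pass.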

How the data were processed

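Total RNA of the cochlear base was depleted of ribosomal RNA before library preparation, per the labels. The deposited table holds estimated counts that the authors did not scale (20.2% of gene values are not whole), and a second deposited table holds the FPKM that the authors computed per transcript length and library total. The build was GRCm38.p6, per the submitters' processing notes; the aligner, the quantifier and the strand setting are not stated in the labels or headers. Circular RNA entries were left out. Gene totals ran from 26245416 to 39433584 counts.

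Estimated counts were rounded and fitted over all genes with edgeR 4.0.16 (filterByExpr, TMM, quasi-likelihood F tests, Benjamini-Hochberg adjustment over 20157 genes, adjusted p under 0.05) in R 4.3.3, and checked on simulated data. CPM are per TMM-scaled library total. FPKM were fitted with limma 3.58.1 on log2(FPKM + 1). An SE is the absolute log2 fold change over the root of F. Implied length is the count times a constant over the FPKM and the gene total. DESeq2 1.42.0 was an alternative. Figures used Python 3.11.15 and matplotlib 3.10.9. RefSeq positions and promoters were matched by gene identifier.

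The genes and lists were chosen with earlier results of these data known. Values of each library are given for up to 3 genes per family with the largest changes that passed and for the most abundant one; Srxn1, Txn2, Gclc and Keap1 were added after their values were seen. Of each other list, up to 3 genes with the largest changes at a mean of at least 1 CPM are named; where 5 or fewer rose, these were named after their values were seen.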

Additional observations from a re-analysis of the deposited data

How the results depend on the processing

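The count of antioxidant genes that fell was 35 with TMM, 21 to 36 over all settings run and 30 to 35 when 1 library was left out (30 without old 2); on log2(FPKM + 1) with no filter it was 21, with TMM on coding genes 29. None rose in the TMM fit or when any 1 library was left out, against 1 with upper-quartile scaling and with TMM on coding genes, 2 with library totals alone and on log2(FPKM + 1) with no filter, and 3 on log2(FPKM + 1) and log2(FPKM + 0.1). Other pathway genes rose in 12 cases with TMM, 24 with library totals alone, 21 with TMM on coding genes, 24 on either filtered FPKM scale, 22 on unfiltered FPKM, 6 at an adjusted p under 0.01, and 5 to 12 without 1 library (5 without young 2, 7 without old 3, 8 without old 2 or young 3). They fell in 69 cases, 43 with library totals alone, 40 and 42 on log2(FPKM + 1) and log2(FPKM + 0.1), 30 on unfiltered FPKM, and 59 to 72 without 1 library. Over all tested genes 27.3% fell and 26.9% rose with TMM, 14.5% and 41% with library totals alone, and 13.7% and 38.4% on log2(FPKM + 1). With TMM on coding genes 20.6% fell and 33.7% rose. On unfiltered FPKM 2499 of 31574 genes fell and 7151 rose. At an adjusted p under 0.01, 3977 of 20157 fell and 3599 rose. Without 1 library 4499 to 5911 fell and 3939 to 5310 rose. Directions turned for 6 antioxidant genes. Of these, Sod2, Glrx3 and Gclm had passed as lower with TMM, and Gclm passed as higher on FPKM. On the 3 FPKM scales Sod2 was at 0.016, Glrx3 at 0.032 to 0.034, Srxn1 at 0.059 to 0.062, Keap1 at 0.17 to 0.18 and Gclm at 0.29 to 0.30; with library totals alone Srxn1 was at 0.044 and Keap1 at 0.10; with the length offset, an alternative added after the data were seen, Gclm was at 0.015. Nfe2l2 was at -0.0015 with DESeq2 size factors, -0.024 with no filter, -0.018 with DESeq2, -0.0037 with limma-voom, -0.0032 with the replicate block and between -0.12 and 0.060 without 1 library. Of 35 genes that fell, 29 stayed called without any 1 library. The cause was not tested.

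Like-numbered libraries did not deviate together (correlations over genes of -0.10, 0.04 and -0.09 for numbers 1, 2 and 3). Unlike-numbered libraries had correlations from -0.07 to 0.15. With 3 libraries a group these values cannot exclude pairing, and the labels do not state it. With the replicate block 34 antioxidant genes fell, Gpx8 missing the threshold, and 65 and 11 other pathway genes fell and rose. Of all 20157 tested genes 5079 fell and 4860 rose with the block.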

Other observations

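Selenoproteins need dedicated enzymes to make and insert selenocysteine. Genes of selenium handling outside the antioxidant enzymes fell in 10 of 19 cases and rose in 2. Of all tested genes 27.3% fell and 26.9% rose, and of coding genes 34.7% and 19.7%. With library totals alone 5 fell and 4 rose, beside 14.5% and 41% of all tested genes. On FPKM 5 fell and 4 rose too, beside 13.7% and 38.4%. Selenok (-1.12 ± 0.09) and Selenow (-0.75 ± 0.09), both small selenoproteins, and Scly (-0.84 ± 0.10), which recovers selenium from selenocysteine, fell most. Selenop, the secreted selenium carrier, rose, with 604.7, 602 and 660.5 CPM in old 1, 2 and 3, against 520.8, 459.9 and 428.7 CPM in young 1, 2 and 3 (0.41 ± 0.09, adjusted p = 0.00389). The groups of Selenop did not overlap. Secisbp2 (0.28), which reads the selenocysteine signal of these RNAs, rose as well, and both were named after their values were seen.

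Of 12 tested genes of enzymes that produce oxidants 7 fell and 2 rose under TMM scaling. Over all tested genes 27.3% were lower and 26.9% higher, and over coding genes 34.7% and 19.7%. Scaled by library totals, 6 were lower and 4 higher, beside 14.5% and 41%. On FPKM 5 were lower and 5 higher, beside 13.7% and 38.4%. The phagocyte oxidase genes Ncf4 (-1.75 ± 0.36), Ncf1 (-1.58 ± 0.12) and Cybb (-1.20 ± 0.19) fell most. Cybb had 10.1, 15.5 and 17.6 CPM in old libraries, against 31.6, 39.4 and 28.2 CPM in young. Neutrophil markers, which moved with them, ran from 39.2 to 116 CPM in old and from 706 to 976 CPM in young libraries, and macrophage markers from 106 to 143 CPM in old and from 146 to 162 CPM in young; their part in these falls was not tested. Xdh (0.37) and Nos1 (0.49), which make superoxide and nitric oxide, rose. Nox3, the oxidase of the inner ear, was among 6 genes of this list whose counts were too low to be tested.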
